A study of Homo sapiens with 12 samples.

Results

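The genes described here encode the machinery that switches the pyruvate dehydrogenase complex off and on, together with the core of the complex itself. They are 10 of the 19907 genes in the deposited files and were chosen by symbol: the kinases PDK1, PDK2, PDK3 and PDK4, the phosphatase catalytic subunits PDP1 and PDP2 with the regulatory subunit PDPR, and the complex subunits PDHA1, PDHB and DLAT. All 10 were found in every library and all 10 passed the filter on low values. The cells were of the MDA-MB-231 line, derived from a human breast tumour that lacked hormone receptors and HER2 amplification. They expressed a glucocorticoid receptor (GR) with alanine in place of a serine that is phosphorylated (S134A-GR) or the wild-type receptor (WT-GR). Their mRNA was sequenced. After 18 h of starvation in 1% DCC, the cells received 1 µM dexamethasone (Dex), a synthetic glucocorticoid, or vehicle for 6 h. The 4 groups were therefore S134A-GR with Dex, S134A-GR with vehicle, WT-GR with Dex and WT-GR with vehicle, with 3 libraries each. The labels do not say how either receptor was introduced, whether the endogenous receptor was still present, whether either line was 1 clone, or whether replicates were separate cultures. An effect of the receptor's sequence and any other difference between the lines therefore cannot be told apart, and the p-values rest on a spread between samples that may be technical alone.

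The pyruvate dehydrogenase complex sits in the mitochondrial matrix and turns pyruvate, the end product of glycolysis, into acetyl-CoA for the TCA cycle. The PDK enzymes phosphorylate the E1 alpha subunit and thereby shut the complex down, and the PDP phosphatases remove the phosphate and restore activity. PDK4 is a classical target of glucocorticoids, fasting and fatty acids in muscle, heart and liver, PDK1 and PDK3 are known as targets of the hypoxia-inducible factor, and the kinases are studied in cancer because they divert pyruvate towards lactate. The study's title names PDK4 and the phosphorylated serine, so the question put to these genes was how their mRNA responded to Dex and whether that response differed in cells with the alanine receptor.

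Sequence upstream of the kinase genes is shown for the member with the largest response to Dex and for the kinases that moved the other way. The letters are from the RefSeq promoter table (GRCh38.p14), 5′ to 3′ on the strand of the gene, and end before the first exon that GENCODE 29 places in the window. Capitals mark a glucocorticoid receptor half-site (AGAACA or its complement TGTTCT) or a hypoxia element core (ACGTG or GCGTG, either strand). PDK4 is shown at chr7:95596517-95596766 on the minus strand, PDK1 at chr2:172555840-172555968 on the plus strand (at the downstream of its 2 RefSeq starts, inside the gene as GENCODE 29 bounds it) and PDK3 at chrX:24465036-24465220 on the plus strand.
PDK4: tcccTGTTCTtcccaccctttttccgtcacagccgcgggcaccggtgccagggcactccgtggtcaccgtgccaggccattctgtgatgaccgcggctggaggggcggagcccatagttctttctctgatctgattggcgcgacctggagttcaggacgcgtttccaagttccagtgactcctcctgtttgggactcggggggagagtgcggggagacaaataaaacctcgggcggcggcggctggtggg
PDK1: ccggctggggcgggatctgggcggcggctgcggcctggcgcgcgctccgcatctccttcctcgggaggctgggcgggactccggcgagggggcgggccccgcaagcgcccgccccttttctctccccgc
PDK3: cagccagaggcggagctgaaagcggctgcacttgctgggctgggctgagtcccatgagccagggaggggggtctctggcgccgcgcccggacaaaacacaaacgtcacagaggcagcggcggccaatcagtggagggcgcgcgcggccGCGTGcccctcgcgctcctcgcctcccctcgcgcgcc

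The PDK4 window held 1 half-site, TGTTCT, that began 246 bases before the annotated start. A half-site of either orientation stood in 12.4% of the 35116 promoter windows of 250 bases in the table. The full palindromic element, both half-sites facing each other across 3 bases, was in 0.00285% of all windows and in none of the 13 windows of the 9 members that matched. The only other member with a half-site was PDPR, in 1 of its windows. The printed stretch of PDK1 held none of these motifs, although its full window had 2 hypoxia cores closer to the start, and that of PDK3 held 1 GCGTG. Hypoxia cores are common, in 43.2% of all windows. These matches describe letters in short windows, and receptor binding was not measured here. PDP1 had no entry in the table.

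Values are normalized read counts, that is, the reads counted on a gene after division by the size factor of each library. Whole reads recovered from them totalled 56.4 to 100.6 M per library (M, mega), with WT-GR vehicle replicate 1 and WT-GR Dex replicate 1 the shallowest at 56.4 and 56.9 M. In the 6 Dex files the gene names were shifted against the values, so names were taken from the vehicle files by line order. Log2 values matched this way correlated with the vehicle means at 0.982 to 0.989 across genes, against -0.0056 to -0.0036 with the names as printed. WT-GR Dex replicates 2 and 3 stood apart, with 193 and 210 genes at exactly 1 read against 352 to 409 in the remaining libraries. Results that rest on them are therefore also given without both. That fit leaves 1 library in WT-GR Dex and takes its spread from the other groups, so for single genes only sizes of change are given. NR3C1, the receptor gene, had 7469 to 8354 in S134A-GR Dex, 8516 to 8971 in S134A-GR vehicle, 8707 to 10250 in WT-GR Dex and 10440 to 12730 in WT-GR vehicle. Gene counts do not show which receptor allele was read. The markers listed as present in this line, VIM, CD44, AXL, ZEB1 and EGFR, were high in every library. ESR1 was at 0 to 5.66 and CDH1 at 0 to 17.1. ERBB2 (8864 to 12000), EPCAM (315 to 1093) and GATA3 (785 to 1574) were expressed, although the list of expected markers holds them as low or absent in this line. PGR was not analysed here.

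PDK4 rose strongly with Dex in both cell lines, by 4.54-fold in S134A-GR cells and 4.85-fold in WT-GR cells, and it was the only kinase that rose. PDK1 fell in both lines and PDK3 fell in WT-GR cells, a call that several alternative fits lost. PDP1, the calcium-stimulated phosphatase, fell in both lines. Dex thus raised PDK4 and lowered PDK1 in both lines, while PDHB and DLAT did not pass the test and PDHA1 rose a little in WT-GR cells. Of the 10 members, 1 rose and 2 fell in S134A-GR cells, against a background of 7.99% of the 15957 tested genes called higher and 7.76% called lower (15.7% in either direction). In WT-GR cells 2 rose and 3 fell, against a background of 13.9% higher and 14% lower (27.9% in either direction). In bulk RNA, fewer cells expressing a gene and less of its RNA per cell cannot be told apart.

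**Figure D1:**
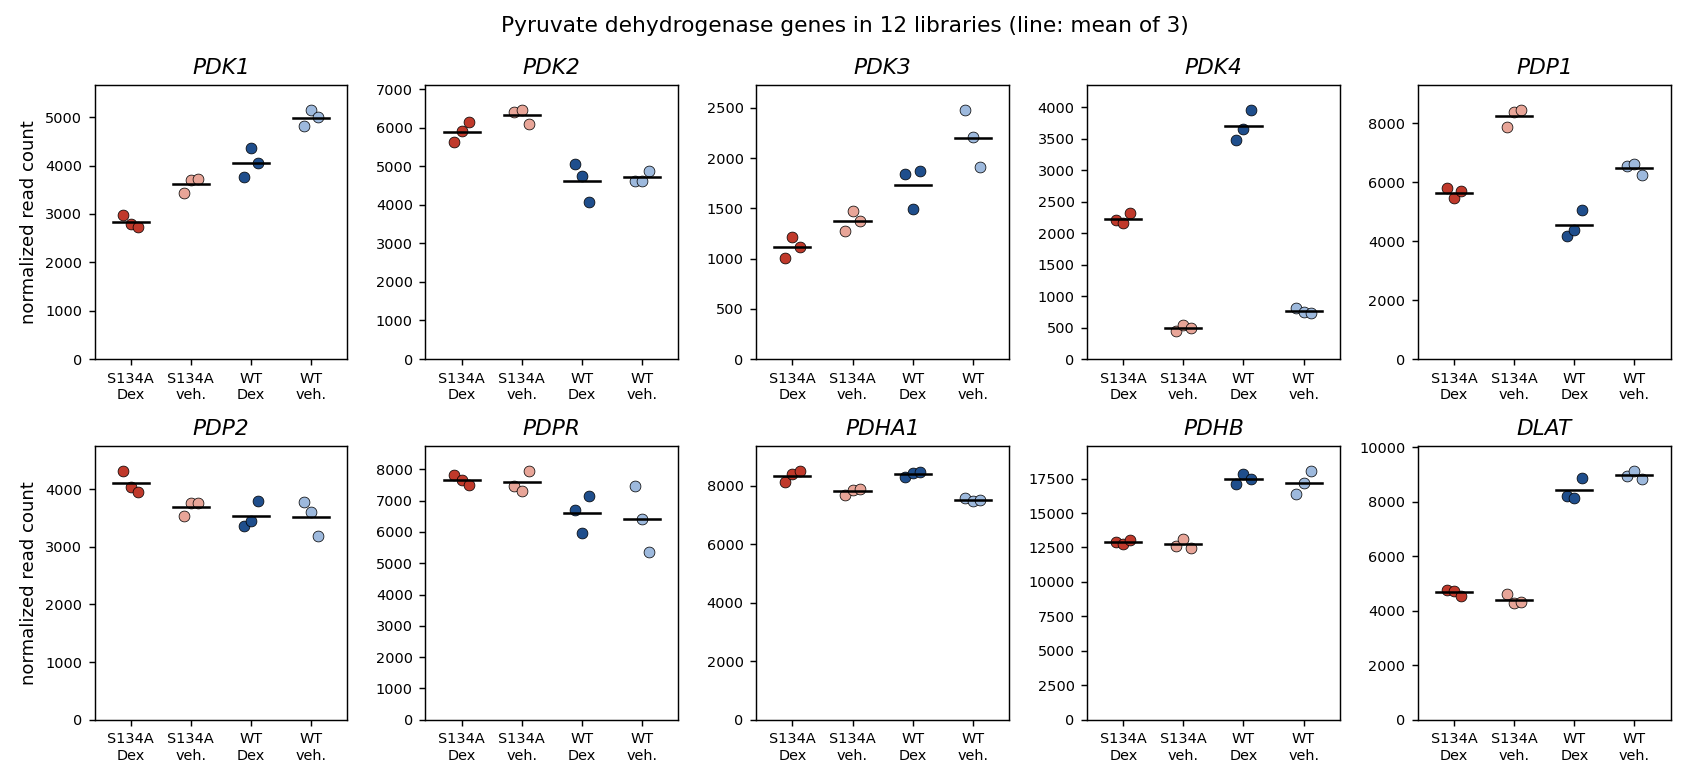
Normalized read counts (y axis, linear from 0) of the 10 genes in each of the 12 libraries, with S134A-GR and WT-GR cells in Dex and vehicle on the x axis; points are libraries and lines are means of 3. PDK4 with Dex lies at 2157 to 2322 in S134A-GR cells and 3488 to 3961 in WT-GR cells, above every vehicle library.

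The PDK4 gene (ENSG00000004799.7, chromosome 7, 95583499 to 95596491, minus strand, GRCh38) encodes the kinase isoform that is induced in starvation. It had 2218, 2157 and 2322 normalized counts in the S134A-GR Dex libraries, against 449, 538 and 488 in S134A-GR vehicle. The WT-GR libraries of this gene had 3488, 3664 and 3961 with Dex, against 813, 750 and 725 with vehicle. The Dex libraries were all above the vehicle libraries in both lines, and every S134A-GR library was below every WT-GR library of the same treatment. The log2 change was 2.18 in S134A-GR cells (95% interval of the fold 4.03 to 5.12, adjusted p = 2.06e-10, limma with Benjamini-Hochberg adjustment) and 2.28 in WT-GR cells (4.31 to 5.46, adjusted p = 1.64e-10). Only 72 of the tested genes (0.451%) had a larger rise in S134A-GR cells and 78 (0.489%) in WT-GR cells. Without WT-GR Dex replicates 2 and 3 the WT-GR change was 2.19.

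The fold response of PDK4 was not shown to differ between the lines. The difference of the log2 responses, S134A-GR minus WT-GR, was -0.09 ± 0.112 (SE), with an adjusted p of 0.683 in limma and a 95% interval that ran from 0.792 to 1.11 times the WT-GR response. Over the 12 fits that each left out 1 library it ranged from -0.16 to -0.03, and without WT-GR Dex replicates 2 and 3 it was -0.01. What differed was the level in both treatments. PDK4 was 0.603 times the WT-GR level in S134A-GR cells with Dex (log2 difference -0.73, adjusted p = 6.29e-06, limma) and 0.644 times with vehicle (-0.64, adjusted p = 2.06e-05). With Dex the S134A-GR mean was 2232 ± 83.1 and the WT-GR mean 3705 ± 239 (SD, n = 3 each). With vehicle these means were 492 ± 44.9 in S134A-GR cells and 763 ± 45.1 in WT-GR cells.

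PDK1, the kinase that also phosphorylates a site of E1 alpha the other isoforms do not use, moved in the opposite direction to PDK4. PDK1 (ENSG00000152256.13, chromosome 2, 172555373 to 172608669, plus strand) had 2974, 2789 and 2728 in S134A-GR Dex, against 3430, 3699 and 3729 in S134A-GR vehicle. In WT-GR cells the counts were 3764, 4361 and 4045 with Dex, against 4810, 5152 and 5003 with vehicle. The Dex libraries were below the vehicle libraries in both lines, without overlap. In S134A-GR cells it fell by 0.35 on the log2 scale (0.782-fold, adjusted p = 0.000994, limma) and by 0.30 in WT-GR cells (0.812-fold, adjusted p = 0.00285). Without WT-GR Dex replicates 2 and 3 the WT-GR value was -0.41.

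PDK3, which has the highest catalytic activity of the isoforms and the least sensitivity to pyruvate, was close to the threshold with Dex. PDK3 (ENSG00000067992.13, chromosome X, 24465221 to 24541862, plus strand) had 1002, 1214 and 1120 in S134A-GR Dex, against 1271, 1475 and 1372 in S134A-GR vehicle. WT-GR cells had 1839, 1490 and 1874 with Dex, against 2480, 2210 and 1909 with vehicle. The groups did not overlap in either line, but the highest WT-GR Dex library and the lowest WT-GR vehicle library were close. The log2 change was -0.31 in S134A-GR cells (adjusted p = 0.0901, limma), where it was not called, and -0.34 in WT-GR cells (adjusted p = 0.0367), where it was. The difference between these responses was 0.04 (95% interval of the fold 0.809 to 1.3, adjusted p = 0.924, limma). The WT-GR call was lost without WT-GR Dex replicate 2 (-0.24, adjusted p = 0.143), without WT-GR vehicle replicate 1 (-0.25, adjusted p = 0.152) and without WT-GR vehicle replicate 2 (-0.33, adjusted p = 0.0984). It was also lost when only the WT-GR groups were fitted (-0.34, adjusted p = 0.0837). Without both WT-GR Dex replicates 2 and 3 the WT-GR change was -0.25.

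PDK2, the broadly expressed isoform that is the most sensitive to dichloroacetate, was not called with Dex. PDK2 (ENSG00000005882.11, chromosome 17, 50094737 to 50112152, plus strand) had 5634, 5924 and 6145 in S134A-GR Dex, against 6406, 6463 and 6103 in S134A-GR vehicle. In WT-GR cells it had 5065, 4747 and 4071 with Dex, against 4624, 4629 and 4878 with vehicle. The groups overlapped in both lines. The 95% interval of the fold was 0.841 to 1.03 in S134A-GR cells and 0.883 to 1.09 in WT-GR cells, with adjusted p-values of 0.429 and 0.774 in limma.

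**Figure D2:**
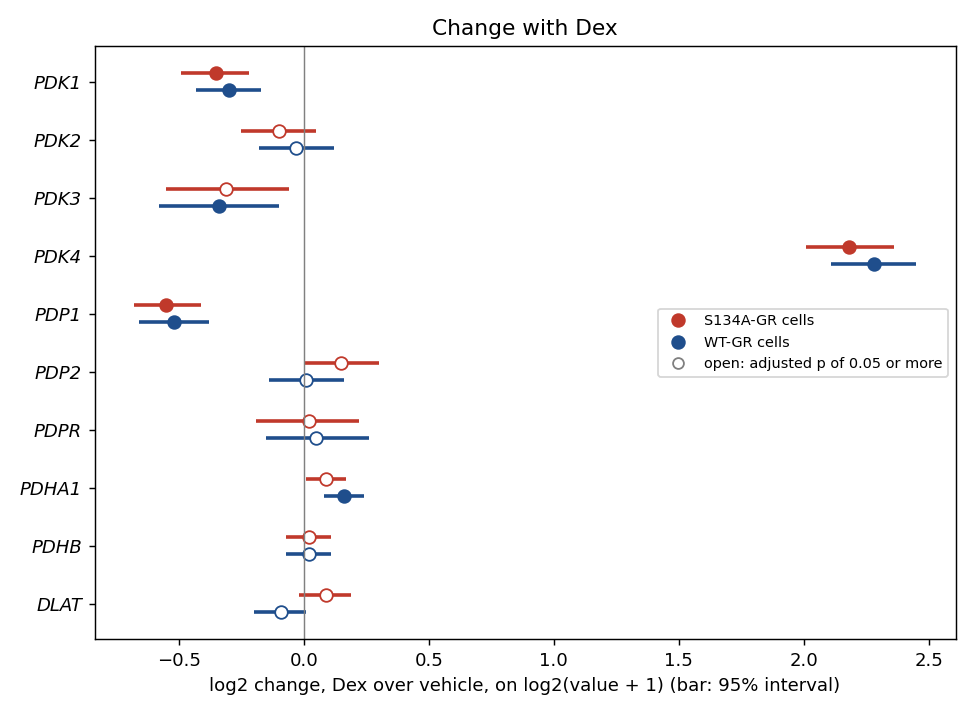
Log2 change with Dex over vehicle (x axis, on log2 of the value plus 1) of the 10 genes in S134A-GR and WT-GR cells; points are estimates, bars are 95% intervals, and open points had an adjusted p of 0.05 or more. PDK4 stands at 2.18 in S134A-GR cells and 2.28 in WT-GR cells, while PDP1 stands at -0.55 and -0.52 in these lines.

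The makeup of the kinase mRNA was compared per kilobase, dividing each value by the length of all annotated exons of its gene. PDK4 made up 24.9 ± 0.81% of the summed kinase level in S134A-GR cells with Dex and 6.1 ± 0.41% with vehicle. In WT-GR cells this share was 35.9 ± 2.7% with Dex and 9.33 ± 0.36% with vehicle (SD, n = 3 each). PDK2 was the largest contributor on this scale in every group, at 54.2, 64.7, 36.9 and 47.6% of the sum in S134A-GR Dex, S134A-GR vehicle, WT-GR Dex and WT-GR vehicle. WT-GR Dex replicate 1 alone, an alternative chosen after seeing the data, had a PDK4 share of 33.3%. In WT-GR Dex the libraries of PDK4 (772 to 877 per kilobase) overlapped those of PDK2, so their order was not resolved there. The order of the kinases depended on which transcript length was used. PDK1 and PDK3 have long annotated exon sets of 14.9 and 4.95 kb but short principal transcripts of 2.99 and 1.92 kb. With the length of the shortest principal transcript, an alternative chosen after seeing the data, PDK1 became the largest contributor in WT-GR vehicle, above PDK2 at 31.2%, and the PDK4 shares were 16.2 ± 0.56, 3.52 ± 0.21, 22.3 ± 1.5 and 4.85 ± 0.2% in the same order of groups. PDK4 had the lowest kinase level in vehicle under the 3 lengths tried, and PDK2 was above PDK4 in every group mean.

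**Figure D3:**
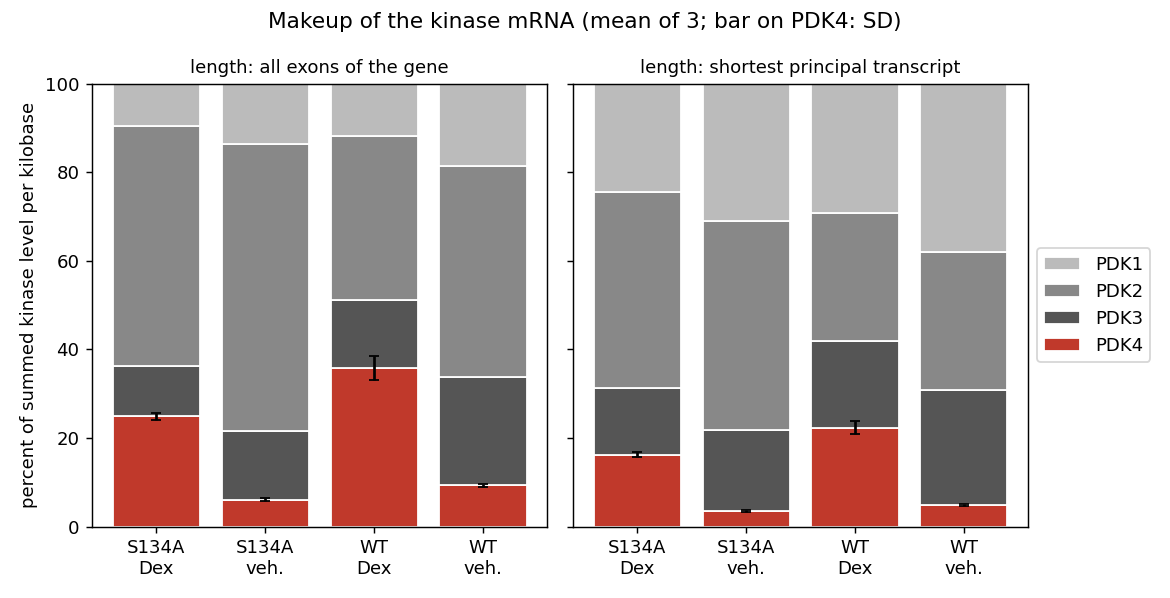
Share of each kinase in the summed kinase level per kilobase (y axis, percent, mean of 3) in the 4 groups, with the length of all exons on the left and of the shortest principal transcript on the right; bars on PDK4 are SD. The PDK4 share is larger with Dex in both lines, at 24.9% against 6.1% in S134A-GR cells and 35.9% against 9.33% in WT-GR cells with all exons.

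The phosphatase catalytic subunits did not move together. PDP1 (ENSG00000164951.15, chromosome 8, 93857807 to 93926066, plus strand) had 5796, 5455 and 5694 in S134A-GR Dex, against 7881, 8396 and 8462 in S134A-GR vehicle. The WT-GR libraries of this gene had 4183, 4369 and 5056 with Dex, against 6553, 6636 and 6235 with vehicle. The Dex libraries were well below the vehicle libraries in both lines. In S134A-GR cells PDP1 fell by 0.55 on the log2 scale (0.685-fold, 95% interval 0.623 to 0.754, adjusted p = 2.87e-05, limma) and by 0.52 in WT-GR cells (0.699-fold, 0.635 to 0.769, adjusted p = 4.8e-05). Of the tested genes, 6.92% had a larger fall in S134A-GR cells and 10.8% in WT-GR cells. Without WT-GR Dex replicates 2 and 3 the WT-GR change was -0.63.

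PDP2, the isoform that calcium does not stimulate, was not called with Dex in either line. PDP2 (ENSG00000172840.6, chromosome 16, 66878589 to 66895754, plus strand) had 4323, 4030 and 3949 in S134A-GR Dex, against 3527, 3769 and 3765 in S134A-GR vehicle. In WT-GR cells the counts were 3355, 3451 and 3800 with Dex, against 3777, 3607 and 3190 with vehicle. The S134A-GR groups did not overlap, with Dex above vehicle, and the WT-GR groups overlapped. The log2 change was 0.15 in S134A-GR cells (adjusted p = 0.182, limma) and 0.01 in WT-GR cells (adjusted p = 0.962), and the difference between these responses had an adjusted p of 0.441.

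PDPR, the regulatory subunit that lowers the sensitivity of PDP1 to magnesium, had 7824, 7651 and 7513 in S134A-GR Dex, against 7481, 7309 and 7957 in S134A-GR vehicle. In WT-GR cells PDPR (ENSG00000090857.13, chromosome 16, 70113626 to 70162537, plus strand) had 6713, 5980 and 7132 with Dex, against 7481, 6404 and 5368 with vehicle. The groups overlapped in both lines, and the WT-GR vehicle libraries spread most. Its log2 change was 0.02 in S134A-GR cells and 0.05 in WT-GR cells (adjusted p = 0.957 and 0.726, limma). PDPR values are uncertain because a near-identical pseudogene copy on the same chromosome, listed in the files as LOC283922, was itself at 129 to 295 normalized counts, and how reads shared by both were counted is not given in the sources used here.

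Summed per kilobase, the kinases stood at 1.33 ± 0.076 times PDP1 plus PDP2 in S134A-GR Dex and 0.933 ± 0.036 times in S134A-GR vehicle. In WT-GR cells the ratio was 1.87 ± 0.18 with Dex and 1.15 ± 0.036 with vehicle (SD, n = 3 each). The lowest Dex library exceeded the highest vehicle library in both lines, at 1.24 against 0.96 in S134A-GR cells and 1.67 against 1.19 in WT-GR cells. WT-GR Dex replicate 1 alone was at 2.02. Without PDK4 the kinase sum was 1491 ± 53.8 per kilobase with Dex and 1674 ± 45.1 with vehicle in S134A-GR cells, against 1467 ± 77.9 with Dex and 1639 ± 28.1 with vehicle in WT-GR cells. With principal transcript lengths the ratios were 1.2, 0.893, 1.79 and 1.25 in S134A-GR Dex, S134A-GR vehicle, WT-GR Dex and WT-GR vehicle. These are ratios of mRNA levels, given with no test, and say nothing of protein or phosphorylation.

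Among the subunits of the complex, PDHA1, the E1 alpha subunit that carries the regulatory serines, was the 1 that was called with Dex. PDHA1 (ENSG00000131828.13, chromosome X, 19343893 to 19361705, plus strand) had 8104, 8381 and 8510 in S134A-GR Dex, against 7689, 7854 and 7874 in S134A-GR vehicle. WT-GR cells had 8300, 8411 and 8475 with Dex, against 7583, 7473 and 7509 with vehicle. The Dex libraries were above the vehicle libraries in both lines. PDHA1 rose by 0.16 on the log2 scale in WT-GR cells (1.12-fold, adjusted p = 0.00671, limma), with a change of 0.14 without WT-GR Dex replicates 2 and 3. The change of 0.09 in S134A-GR cells was not called (1.07-fold, adjusted p = 0.119), and the difference between the responses had an adjusted p of 0.533. The WT-GR call was lost when counts were scaled by library size alone (0.1, adjusted p = 0.0953) and when only the WT-GR groups were fitted (0.16, adjusted p = 0.0724).

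PDHB, the E1 beta subunit that pairs with PDHA1, had 12870, 12760 and 13020 in S134A-GR Dex, against 12580, 13090 and 12480 in S134A-GR vehicle. In WT-GR cells PDHB (ENSG00000168291.12, chromosome 3, 58427630 to 58433857, minus strand) had 17090, 17830 and 17430 with Dex, against 16360, 17180 and 18080 with vehicle. Dex and vehicle overlapped in both lines, with intervals of the fold of 0.95 to 1.08 in S134A-GR cells and 0.952 to 1.08 in WT-GR cells. The DLAT gene (ENSG00000150768.15, chromosome 11, 112024814 to 112064390, plus strand) encodes the E2 acetyltransferase, whose lipoyl domains anchor the kinases. It had 4756, 4735 and 4561 in S134A-GR Dex, against 4606, 4294 and 4339 in S134A-GR vehicle. In WT-GR cells it had 8210, 8157 and 8898 with Dex, against 8944, 9151 and 8836 with vehicle. The groups overlapped within each line, and the WT-GR libraries were all far above the S134A-GR libraries. DLAT was called lower with Dex in WT-GR cells without WT-GR Dex replicate 3 (-0.13, adjusted p = 0.0332, limma) and with scaling by library size alone (-0.15, adjusted p = 0.0362, edgeR).

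DLAT gave the members' only unadjusted p under 0.05 when the Dex responses of the lines were compared, where 17.5% of all genes had one. Its log2 change with Dex was 0.09 in S134A-GR cells and -0.09 in WT-GR cells, and the difference of 0.18 had an unadjusted p of 0.0186 and an adjusted p of 0.22 in limma. Across the members 0 of 10 differences were called by limma, by edgeR and by DESeq2, against a background of 0.414% of genes (66 of 15957) in limma. Without WT-GR Dex replicate 3 the DLAT difference was 0.22 and was called (adjusted p = 0.0421, limma), and 1604 genes in all were then called. Without both WT-GR Dex replicates 2 and 3 the DLAT difference was also 0.22. The intervals of the remaining differences bound how unlike the responses could be. They ran from 0.845 to 1.1 times for PDK1, 0.824 to 1.1 for PDK2, 0.857 to 1.12 for PDP1, 0.956 to 1.28 for PDP2, 0.797 to 1.19 for PDPR, 0.884 to 1.03 for PDHA1 and 0.912 to 1.09 for PDHB. A p-value that misses the threshold does not show that the lines responded alike.

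Counting groups that did not overlap at all, whatever the test, 6 of 10 members separated with Dex in S134A-GR cells (background 38.6%) and 5 of 10 in WT-GR cells (background 35.1%). The separations in S134A-GR cells were PDK1, PDK3, PDK4, PDP1, PDP2 and PDHA1. Those in WT-GR cells were the same genes without PDP2. With replicate 1 as the lone WT-GR Dex library 7 of 10 lay outside the range of the vehicle libraries, where 76.0% of all genes did. The median log2 change over the members was 0.02 in S134A-GR cells and -0.01 in WT-GR cells, beside -0.016 and -0.02 over all genes tested.

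S134A-GR cells differed from WT-GR cells in most of these genes, in Dex and in vehicle. PDK1, PDK3, PDK4, PDHB and DLAT were lower in S134A-GR cells whichever treatment was compared, and PDK2 and PDP1 were higher in both. PDP2 was higher in Dex and PDPR in vehicle. With Dex 3 members were called higher and 5 lower, against a background of 23.4% of genes higher and 26.3% lower. With vehicle 3 were called higher and 5 lower, against 23.8% and 26.7%. In either direction 49.7% of all genes tested were called in Dex and 50.5% in vehicle, so calls among these genes are not particular to them. The Dex and vehicle comparisons of the lines use means of different libraries, and each shares these libraries with the comparisons of Dex above. All comparisons also share 1 estimate of the spread per gene from the 12 libraries, so their p-values are not independent.

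**Figure D4:**
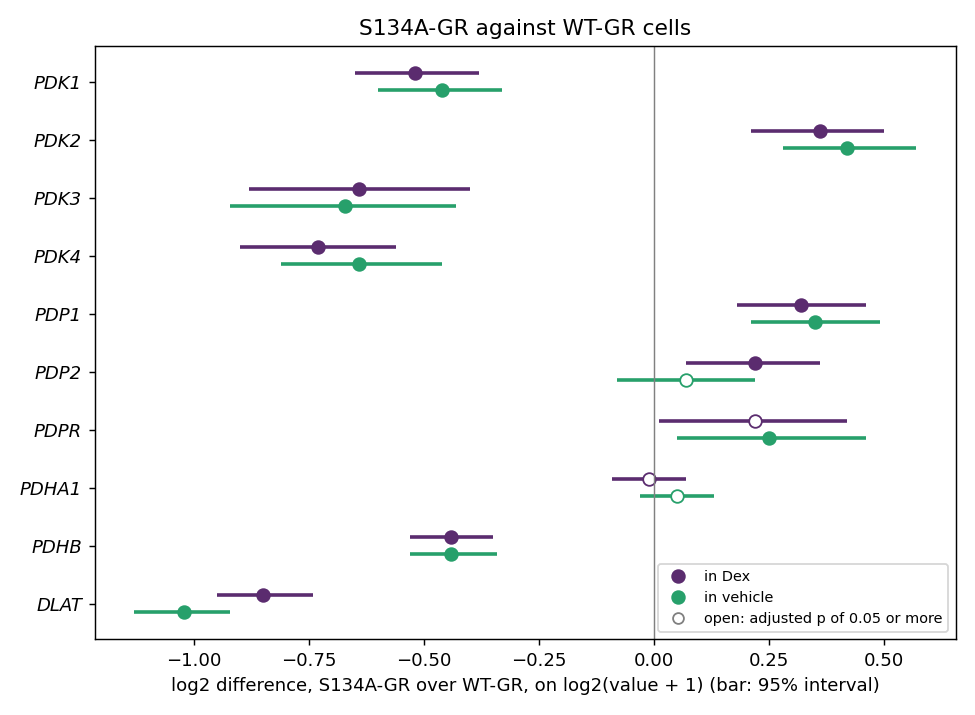
Log2 difference of S134A-GR over WT-GR cells (x axis, on log2 of the value plus 1) for the 10 genes in Dex and in vehicle; points are estimates, bars are 95% intervals, and open points had an adjusted p of 0.05 or more. DLAT lies lowest at -0.85 in Dex and -1.02 in vehicle, and PDK2 highest at 0.36 and 0.42 in these treatments.

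DLAT differed most. It averaged 4684 ± 107 in S134A-GR Dex and 8422 ± 413 in WT-GR Dex, a ratio of 0.557 (95% interval 0.519 to 0.597, adjusted p = 1.58e-08, limma). With vehicle it averaged 4413 ± 169 in S134A-GR cells and 8977 ± 160 in WT-GR cells, a ratio of 0.491 (0.458 to 0.528, adjusted p = 2.69e-09; SD, n = 3 each). Of all genes tested, 5.95% were lower by more in Dex and 4.93% in vehicle. Without WT-GR Dex replicates 2 and 3 the log2 difference in Dex was -0.81. PDHB, the other subunit that was called, was at 0.738 times the WT-GR level in Dex (adjusted p = 2.31e-06) and 0.74 times in vehicle (adjusted p = 2.35e-06). PDHA1, the partner of PDHB in the E1 tetramer, did not pass the test, at 0.992 times in Dex (95% interval 0.939 to 1.05) and 1.04 times in vehicle (0.982 to 1.1). With scaling by library size alone PDHA1 was called higher in S134A-GR cells, by 0.10 on the log2 scale in Dex (adjusted p = 0.047, edgeR) and 0.13 in vehicle (adjusted p = 0.0159). The subunits of the complex were thus at unequal levels between the lines: the PDHA1 to PDHB ratio per kilobase was with Dex 0.679 ± 0.015 in S134A-GR cells and 0.505 ± 0.0087 in WT-GR cells, and with vehicle 0.645 ± 0.016 in S134A-GR cells and 0.46 ± 0.025 in WT-GR cells (SD, n = 3 each). In WT-GR Dex replicate 1 alone it was 0.51.

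Among the kinases, PDK3 in S134A-GR cells was 0.643 times its WT-GR level in Dex (adjusted p = 0.000369, limma) and 0.627 times in vehicle (adjusted p = 0.000223). PDK1 was 0.699 times the WT-GR level in Dex (adjusted p = 1.38e-05) and 0.725 times in vehicle (adjusted p = 3.5e-05). PDK2 went the other way, at 1.28 times in Dex (adjusted p = 0.000806) and 1.34 times in vehicle (adjusted p = 0.000188). Every S134A-GR library of PDK2 lay above every WT-GR library, while those of PDK1, PDK3 and PDK4 lay below the WT-GR libraries of the same treatment. Without WT-GR Dex replicates 2 and 3 the Dex differences were -0.73 for PDK3, -0.41 for PDK1, 0.22 for PDK2 and -0.64 for PDK4 on the log2 scale.

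PDP1 was 1.25 times the WT-GR level in S134A-GR cells with Dex (adjusted p = 0.000986, limma) and 1.27 times with vehicle (adjusted p = 0.000495). PDP2 was 1.16 times in Dex (adjusted p = 0.02) and 1.05 times in vehicle (adjusted p = 0.442). The Dex call of PDP2 was lost without WT-GR Dex replicate 1 (adjusted p = 0.0677), without WT-GR Dex replicate 2 (adjusted p = 0.0583) and without S134A-GR Dex replicate 1 (adjusted p = 0.0787). PDPR was 1.16 times in Dex (adjusted p = 0.0752) and 1.19 times in vehicle (adjusted p = 0.0414), where the groups overlapped and leaving out any of WT-GR vehicle replicates 2 and 3 or S134A-GR vehicle replicates 1, 2 and 3 ended the call (log2 0.13 to 0.28, adjusted p = 0.059 to 0.192), as did fitting only the compared groups (0.25, adjusted p = 0.0676). The PDPR difference in Dex was called in 3 alternatives, when only the compared groups were fitted (0.22, adjusted p = 0.0354, limma), without WT-GR Dex replicate 3 (0.27, adjusted p = 0.041) and with scaling by library size alone (0.33, adjusted p = 0.0086, edgeR). Without both WT-GR Dex replicates 2 and 3 the Dex differences were 0.43 for PDP1, 0.29 for PDP2, 0.19 for PDPR and, among the subunits, -0.41 for PDHB. The pseudogene copy of PDPR was also higher in S134A-GR Dex (256, 264 and 287) than in WT-GR Dex (154, 215 and 204), and its part in the PDPR difference was not tested. Counting separations alone, 9 of 10 members did not overlap between the lines in Dex (background 52.4%) and 8 of 10 in vehicle (background 64.3%). With replicate 1 as the lone WT-GR Dex library the count in Dex was also 9 (background 81.9%).

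In these libraries of MDA-MB-231 cells, some genes known as markers of other cell types were expressed and also differed between the groups. CD68 was 36710 to 39330 in S134A-GR Dex and 26750 to 30540 in WT-GR Dex, and 40560 to 42860 in S134A-GR vehicle and 27920 to 28220 in WT-GR vehicle. COL1A1 was 1714 to 1834 in S134A-GR Dex and 814 to 1147 in WT-GR Dex, and PECAM1 averaged 2026 in S134A-GR Dex, 1141 in S134A-GR vehicle, 2536 in WT-GR Dex and 1358 in WT-GR vehicle. PTPRC, the defining marker of leukocytes, stood at 0 to 18.3 in all libraries. Of these 4 markers 3 passed the filter on low values, and the part of such genes in the differences above was not tested.

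The genes whose profile over the 12 libraries was nearest to that of PDK4, by the root mean square difference of centred log2 values, were NNMT (0.118), FPR1 (0.161), TFCP2L1 (0.162), PXYLP1 (0.192) and SLC38A4 (0.245), where the median gene stood at 1.207. They were selected for likeness, so their values are a description. Over the 10 libraries without WT-GR Dex replicates 2 and 3, 4 of these 5 were again among the nearest 5, PLXNA2 (0.163) came in and SLC38A4 was at rank 7. NNMT, which methylates nicotinamide, averaged 5910 ± 121 with Dex and 1347 ± 68.6 with vehicle in S134A-GR cells, against 11050 ± 449 with Dex and 2049 ± 160 with vehicle in WT-GR cells. TFCP2L1, a transcription factor of the grainyhead family, averaged 2600 ± 102 with Dex and 465 ± 21.6 with vehicle in S134A-GR cells, against 4348 ± 237 with Dex and 917 ± 82.6 with vehicle in WT-GR cells (SD, n = 3 each). FPR1 is a formyl peptide receptor and SLC38A4 an amino acid transporter. All 5 had log2 changes with Dex of 1.67 to 2.48 and were lower in S134A-GR cells in Dex and in vehicle, with log2 differences of -0.98 to -0.44.

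Genes around the complex were examined in lists, and their counts stand against the same backgrounds as the members, 15.7% of genes called with Dex in S134A-GR cells and 27.9% in WT-GR cells. DLD, the E3 dehydrogenase, and PDHX, the E3-binding protein, were not called in either line (0 of 2). PDHA2 was not analysed here. Of the 5 mitochondrial pyruvate carrier and monocarboxylate transporter genes none was called in S134A-GR cells by limma. There 3 of the 5 had an unadjusted p under 0.05, as did 25.8% of all genes tested. In WT-GR cells SLC16A3, which exports lactate, rose by 0.32 on the log2 scale (70060 ± 8910 in WT-GR Dex and 55740 ± 1980 in WT-GR vehicle, SD, n = 3 each, adjusted p = 0.0122, limma). Of 7 other pyruvate enzymes, GPT2 (-0.18, adjusted p = 0.00799) and PKM (-0.16, adjusted p = 0.042) fell in S134A-GR cells and PC, pyruvate carboxylase, rose in WT-GR cells (0.24, adjusted p = 0.0494). LDHA, which turns pyruvate into lactate, had log2 changes of -0.04 in S134A-GR cells and -0.05 in WT-GR cells and was not called.

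Of 7 genes for the lipoate and thiamine cofactors, 1 was called in each line. SLC19A2, a thiamine importer, rose to 1693 ± 55 in S134A-GR Dex, against 917 ± 71.8 in S134A-GR vehicle (log2 change 0.89, adjusted p = 1.74e-06, limma). In WT-GR cells it was 1605 ± 130 with Dex and 1038 ± 50.6 with vehicle (0.63, adjusted p = 5.51e-05; SD, n = 3 each). Of 8 genes of the sister 2-oxoglutarate and branched-chain complexes 2 rose in each line, where 7.99% of all genes were called higher in S134A-GR cells and 13.9% in WT-GR cells. OGDH rose in both (0.22 in S134A-GR cells, adjusted p = 0.00779, and 0.23 in WT-GR cells, adjusted p = 0.00373), with DLST in S134A-GR cells (0.12, adjusted p = 0.034) and BCKDK, the kinase of the branched-chain complex, in WT-GR cells (0.27, adjusted p = 0.0322).

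Of the transcription factors and cofactors known to act on PDK genes, 10 passed the filter. In S134A-GR cells 5 rose and 1 fell, against 7.99% of all genes called higher and 7.76% lower, and in WT-GR cells 6 rose and 2 fell, against 13.9% and 14%. Their median log2 change was 0.24 in S134A-GR cells and 0.31 in WT-GR cells, beside -0.016 and -0.02 over all genes, and no test compared the lists. E2F1 fell in both lines, by a log2 change of -0.33 in S134A-GR cells and -0.5 in WT-GR cells, and NR3C1 fell in WT-GR cells (-0.32). FOXO1, a forkhead factor known to induce PDK4, rose to 1034 ± 51.5 in S134A-GR Dex, against 368 ± 24.1 in S134A-GR vehicle (log2 change 1.49, adjusted p = 3.81e-08, limma). In WT-GR cells it was 1096 ± 91.3 with Dex and 477 ± 31.6 with vehicle (1.2, adjusted p = 3.72e-07; SD, n = 3 each). PPARGC1A, the coactivator PGC-1 alpha, rose by 1.4 in S134A-GR cells (adjusted p = 3.58e-06) and 1.51 in WT-GR cells (adjusted p = 1.8e-06). MYC, which acts on PDK1, rose by 0.89 (adjusted p = 2.71e-09) and 0.8 (adjusted p = 7.83e-09) in these lines, and FOXO3 by 0.6 (adjusted p = 1.85e-05) and 0.52 (adjusted p = 8.17e-05). For the 39 tested genes of these lists 0 differences of the Dex responses between the lines were called by limma. Unadjusted p-values were under 0.05 for 9 of the 39, where 17.5% of all genes tested had such a p-value. ESRRG did not pass the filter. Leaving out WT-GR Dex replicates 2 and 3 was an alternative for these lists chosen after seeing the data. It leaves 1 library in that group, so only sizes of change are given. The WT-GR changes were then 1.28 for FOXO1, 1.45 for PPARGC1A, 0.87 for MYC, 0.51 for FOXO3 and 0.49 for SLC19A2. They were 0.50 for SLC16A3, 0.42 for PC, 0.31 for OGDH and 0.45 for BCKDK. The change went from -0.13 to -0.21 for DLD, from -0.21 to -0.33 for SLC16A7 and from -0.05 to -0.14 for LDHB. It went from -0.14 to -0.21 for ME1, from -0.1 to -0.27 for ME2 and from 0.18 to 0.46 for BCKDHA. For DBT it went from -0.17 to -0.28 and for PPARA from 0.24 to 0.21. E2F1 was then at -0.45 and NR3C1 at -0.35.

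**Figure D5:**
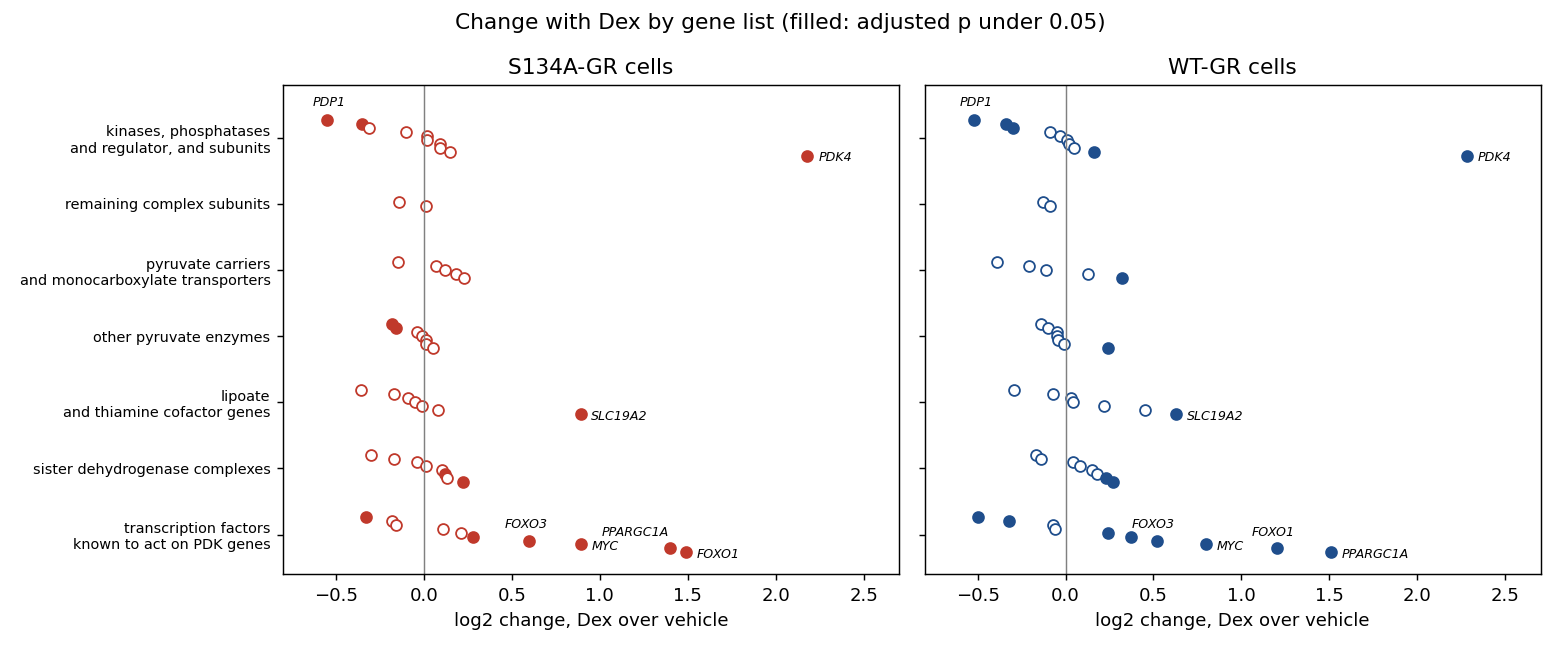
Log2 change with Dex over vehicle (x axis) of each tested gene in S134A-GR cells (left) and WT-GR cells (right), grouped by list down the page; filled points had an adjusted p under 0.05 and those with a change past 0.5 are named. PDK4, at 2.18 in S134A-GR cells and 2.28 in WT-GR cells, lies to the right of every gene of the lists, and FOXO1 and PPARGC1A come next.

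Between the lines, DLD, like DLAT, was lower in S134A-GR cells, with log2 differences of -0.26 in Dex (adjusted p = 0.000856, limma) and -0.40 in vehicle (adjusted p = 2.17e-05). PDHX was lower in Dex (-0.15, adjusted p = 0.0303) and not called in vehicle. Of the other pyruvate enzymes 5 of 7 were lower in Dex and 4 of 7 in vehicle, with none higher, where 26.3% of all genes were called lower in Dex and 26.7% in vehicle. LDHA averaged 149600 in S134A-GR Dex and 213900 in WT-GR Dex (log2 difference -0.51, adjusted p = 2.38e-07), and 153300 in S134A-GR vehicle and 222100 in WT-GR vehicle (-0.53, adjusted p = 1.6e-07). Leaving out WT-GR Dex replicates 2 and 3 leaves 1 library in that group, so only sizes of the difference are given. The Dex differences were then -0.18 for DLD, -0.46 for LDHA and -0.12 for PDHX. That of ME2, a malic enzyme among the pyruvate enzymes, went from 0.11 to 0.28.

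Several members share sequence with a neighbouring gene on the opposite strand, and whether reads were counted by strand is not given in the sources used here. The annotated span of PDK2, introns included, overlaps that of SAMD14 by 2113 bases. The span of PDHA1 overlaps that of MAP3K15 by 1650 bases, and the span of DLAT overlaps that of PIH1D2 by 381 bases. How much of these overlaps lies in exons was not computed. PDK1, PDK2, PDPR and PDHB overlap annotated antisense RNAs, and PDP1 overlaps a long non-coding RNA and a microRNA on the opposite strand. The span of PDK4 overlaps no other gene of GENCODE 29.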

How the data were processed

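RNA-seq files of 12 libraries were used. For each gene the authors deposited 1 normalized signal (the count of reads over the size factor of the library), with no header that says so; the unit was read from the values, which were whole multiples of a step in every library within 0.01 reads. The build hg38 and the tools DESeq2 1.22.2, Subread, featureCounts and FastQC 0.11.7 are named in the submitters' processing notes, with no role or order. Aligner and annotation: not given in the sources used here. The 6 Dex files listed 26485 names beside 19907 values, so names came from the vehicle files by line. For the 10 genes, the 201 lines around each matched best with no shift.

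Values were tested as log2(value + 1) with limma 3.58.1 (trend, all 12 libraries, genes at 10 or more in at least 3 libraries, 15957 genes, Benjamini-Hochberg threshold 0.05); fold changes are on that scale. The fit was tested on simulated data. Recovered reads were refitted with edgeR 4.0.16 and DESeq2 1.42.0. Other pseudocounts, no filter, library-size scaling, fits of the compared groups alone, a replicate block, each library left out, both WT-GR Dex replicates 2 and 3 left out and other transcript lengths (GENCODE, GRCh38) were tried. All 10 members were named; of the pathway lists, genes past the threshold in a Dex comparison, at most 4 per list by size of change; and the 5 genes nearest to PDK4. The transcription factors that fell with Dex were also named. Members and lists were chosen with earlier results of these data known. Lengths and positions are from GENCODE 29 and promoters from RefSeq. Of the 10 symbols, 9 matched the promoter table. Of the low counts (1 to 20 reads), 58.2 to 67.5% were even, and without molecular identifiers reads are not independent molecules, so precision from depth alone would be overstated.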

Additional observations from a re-analysis of the deposited data

How the results depend on the processing

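Of 50 results for the 10 genes, 24 were called. With Dex these were 3 in S134A-GR cells, where 15.7% of all genes were called, and 5 in WT-GR cells (27.9%). Between the lines they were 8 in Dex (49.7% of all genes) and 8 in vehicle (50.5%). The difference of responses had 0 (0.414%). None of the 24 reversed under any alternative run, and 4 lost the call under at least 1 (PDK3 and PDHA1 with Dex in WT-GR cells, PDP2 between the lines in Dex, PDPR between the lines in vehicle). Fitting only the WT-GR groups called 3 members and 2490 genes with Dex, against 5 and 4455. For the difference of responses, 66 genes were called in limma, 506 with DESeq2, 25 with the replicate block and 2550 without both WT-GR Dex replicates 2 and 3, a fit that leaves 1 library in that group and assumes that it varies like the others; leaving out single libraries gave 26 to 1604 genes and 0 to 1 members. The matching range for all genes with Dex in WT-GR cells was 2963 to 6094. With the longest transcript the PDK4 share of the kinases was 22.5% in S134A-GR Dex, 5.45% in S134A-GR vehicle and 8.89% in WT-GR vehicle; with the shortest principal transcript, chosen after seeing the data, it was 16.2, 3.52, 22.3 and 4.85% in S134A-GR Dex, S134A-GR vehicle, WT-GR Dex and WT-GR vehicle.

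Results that reversed were all uncalled at first. Scaling by library size alone, which moved the median of all genes between the lines in Dex to 0.115 from 0.011 and the share of higher calls to 64.9% from 47%, gave log2 values of -0.01 for PDPR and -0.01 for PDHB with Dex in S134A-GR cells, -0.05 for PDP2, -0.02 for PDPR and -0.04 for PDHB with Dex in WT-GR cells, 0 for PDP1, 0.01 for PDPR and 0.04 for PDHB in the difference of responses, and 0.1 for PDHA1 between the lines in Dex (adjusted p = 0.047, edgeR). It also moved the share of higher calls to 59.6% from 47.2% between the lines in vehicle and to 32.4% from 49.7% with Dex in WT-GR cells. DESeq2 gave 0 for PDHB in the difference. Without both WT-GR Dex replicates 2 and 3, the values with Dex in WT-GR cells were 0.11 for PDK2, -0.07 for PDP2 and -0.01 for PDHB, the differences of responses were 0.05 for PDK1, -0.06 for PDK3, 0.08 for PDP1 and 0.03 for PDHB, and PDHA1 between the lines in Dex was 0.01. The cause of these reversals was not tested. Leaving out 1 library gave -0.01 to 0.05 for PDPR with Dex in S134A-GR cells; -0.10 to 0.06 for PDK2, -0.06 to 0.06 for PDP2, -0.07 to 0.17 for PDPR and -0.01 to 0.06 for PDHB with Dex in WT-GR cells; -0.07 to 0.13 for PDK3, -0.08 to 0.05 for PDP1, -0.15 to 0.09 for PDPR and -0.04 to 0.03 for PDHB in the difference; -0.03 to 0.01 for PDHA1 in Dex and 0 to 0.12 for PDP2 in vehicle between the lines. Deviations of same-numbered libraries from their group means correlated at -0.085 to 0.051. With 3 libraries per group such values cannot settle whether the numbers mark pairs, and the labels do not say. With the replicate block PDK3 with Dex in WT-GR cells lost its call (adjusted p = 0.0651, limma) and no other member's call changed. DESeq2 called PDK3 with Dex in S134A-GR cells (-0.3, adjusted p = 0.0468).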
